A study of Chelonia mydas with 15 samples.

Results

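Chaperones are proteins that help other proteins fold, keep them from clumping and hand failed clients over for destruction. RNA levels of the cytosolic and mitochondrial chaperones and their helpers were examined in whole embryos of the green sea turtle, Chelonia mydas, around the end of the arrest that halts development inside the mother. The members are 49 genes listed by symbol, and they were chosen with earlier results of these data known. They cover the HSP70, HSP110 and HSP90 families, the mitochondrial chaperones, J-domain proteins, co-chaperones, heat shock factors and the subunits of TRiC and prefoldin. Of these, 48 are among the 23730 named genes counted, and HSPE1, the partner of HSPD1, was not analysed here. RNA was sequenced from 15 embryos in 3 groups of 5 libraries. Freshly laid embryos were taken out within 1 h of laying. Normoxia embryos came from eggs incubated for 36 h in sand with an oxygen tension near 159 mmHg. Hypoxia embryos came from eggs held for 36 h inside sealed, nitrogen-filled bags buried in sand, with oxygen under 8 mmHg. Both incubated groups were kept at 26 to 28 °C. The hypoxia group therefore differed from normoxia in its sealed bag as well as in oxygen, and both incubated groups differed from freshly laid in time. Any difference between the groups in how far the embryos had developed cannot be told apart from these. The labels give no strain, genotype, female or clutch, so p-values measure the spread between these libraries only. Replicate numbers name the libraries of a group in the order of the numbers in their titles. What those title numbers stand for is not given in the sources used here.

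HSP70 proteins bind short exposed stretches of unfolded proteins in a cycle driven by ATP. J-domain proteins bring clients to HSP70 and trigger ATP cleavage, while HSP110 and BAG proteins release the spent nucleotide. HSP90 acts later on clients such as kinases and steroid receptors, guided by a set of co-chaperones. TRiC is a barrel that folds actin and tubulin, with prefoldin delivering them. HSF1 is the transcription factor that raises many of these genes after heat or other protein damage, and in mammals it also sustains chaperone supply in early embryos. Folding consumes ATP, and oxygen shortage limits ATP supply.

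Freshly laid libraries held 14.5 to 21.8 M counts each, normoxia libraries 18.3 to 26.8 M and hypoxia libraries 17.6 to 20.8 M. Levels are given as CPM, the counts of a gene in relation to the library's total after TMM scaling, which corrects for a few genes taking a large share of a library. TMM factors were 0.785 to 0.904 in hypoxia and 1.00 to 1.14 in the other groups. The 5 genes taken as a check on the hypoxia label (EGLN3, LDHA, VEGFA, BNIP3 and ADM) were called higher in hypoxia against either other group, with no overlap between libraries for EGLN3, which held 614.5 to 838.9 CPM in hypoxia and 10.7 to 107 CPM elsewhere. Of 10 embryo markers 9 were found and had counts in every group, and their summed level was 1810 to 2010 CPM across the freshly laid group, 494 to 829 CPM in normoxia and 517 to 1110 CPM in hypoxia. Yolk and extraembryonic markers (11 of 15 found) summed to 27.5 to 69.3 CPM, 99.1 to 751 CPM and 127 to 809 CPM in the same order, with FABP2 at 0 counts in freshly laid embryos. In hypoxia against normoxia, 0 of the 9 yolk and extraembryonic markers tested were called higher and 3 lower (FABP2, FGA and APOB, 11.2-fold to 18.1-fold). Of the 9 embryo markers tested, 3 were higher, among them POU5F1 and EOMES, and 2 lower, among them TBXT. The shares over all tested genes were 25.7% higher and 23.2% lower. The sums thus hide differences between single markers. The part of these markers in the results below was not tested. In whole embryos, fewer cells of a type and less RNA per cell cannot be told apart.

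Chaperone RNA lay above the freshly laid level in normoxia for many members and below it in hypoxia for many. Called means an adjusted p under 0.05 in edgeR's quasi-likelihood test with Benjamini-Hochberg adjustment over all 16639 tested genes, and 47 members had enough counts to be tested. In normoxia against freshly laid, 21 members were called higher, or 44.7% of those tested, where 15.2% of all tested genes were. Another 2 members were called lower, where 16.1% of all genes were, and 31.2% of all genes were called in either direction. In hypoxia against freshly laid, 5 members were higher and 19 lower, where the shares over all genes were 20.9% higher, 19.4% lower and 40.3% in either direction. In hypoxia against normoxia, 6 members were higher and 30 lower, or 63.8% of those tested, where 25.7% of all genes were higher, 23.2% lower and 48.8% in either direction. The median log2 fold change of the tested members was 0.39, -0.29 and -0.61 in the 3 comparisons, and that of all genes lay between -0.01 and 0.06. Any 2 of these comparisons share a group, so their results are not independent of each other.

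Scaling to library totals alone moved the median of all genes by -0.31 and -0.32 on the log2 scale in the comparisons of hypoxia with freshly laid and with normoxia. Under that scaling 2088 genes were higher and 5259 lower in hypoxia than in freshly laid embryos, and 2674 higher and 5600 lower than in normoxia. With TMM these counts were 3474 and 3227, and 4268 and 3855, so that the share of lower calls went from 48.2% to 71.6% against freshly laid and from 47.5% to 67.7% against normoxia. The members then split into 4 higher and 28 lower against freshly laid, and 4 higher and 34 lower against normoxia, and no called member changed direction. The lower calls gained in this way against freshly laid were TCP1, CCT3, CCT6A, CCT8, CDC37, DNAJA3, PFDN6, PTGES3 and STUB1. Against normoxia they were CCT2, CCT4, DNAJA4 and PTGES3. Of the member calls, 10 of 23 in normoxia against freshly laid (HSPA8, HSPH1, HSPD1, DNAJA1, DNAJA2, DNAJB6, AHSA1, TCP1, CCT5 and PFDN1) held under all 25 alternative settings, 19 of 24 in hypoxia against freshly laid and 26 of 36 in hypoxia against normoxia. Of the normoxia libraries, 2 and 3, and 4 and 5, have neighbouring numbers in their titles, and whether such a pair shares a source is not given in the sources used here. With each pair summed, which leaves 3 normoxia samples, 10 members were called higher and 0 lower in normoxia against freshly laid. Of all genes, 1422 were then higher and 1565 lower, where the main fit had 2521 and 2672. Calls of HSPA2, HSPA4L, HSP90AA1, HSP90AB1, DNAJA3, DNAJB4, CHORDC1, BAG1, CCT3, CCT4, CCT6A, PFDN2 and PFDN4 were lost there (adjusted p = 0.0612 to 0.143). In hypoxia against normoxia, 6 members were then higher and 23 lower, where 3393 of all genes were higher and 3166 lower. The calls lost were those of DNAJB1, FKBP4, ST13, STUB1, PFDN1, PFDN2 and PFDN6 (adjusted p = 0.0526 to 0.108). No member call changed in hypoxia against freshly laid. With classes of title numbers as a covariate, 13 members were higher and 2 lower in normoxia against freshly laid (all genes 1990 and 2213). In hypoxia against freshly laid 5 were higher and 19 lower (all genes 3574 and 3372). In hypoxia against normoxia 6 were higher and 28 lower (all genes 3990 and 3740). Each member described below whose call a left-out library ended is named with its range of adjusted p.

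Group means of the members mostly ran in the same order. The mean was lowest in hypoxia, intermediate in freshly laid embryos and highest in normoxia for 26 of the 47 tested members (55.3%), an order that 20.8% of all tested genes had. The reverse order was found for HSPA4, HSP90AB1, DNAJB4, HSF1, HSF2, CCT7 and PFDN5, or 14.9% of the members and 22.4% of all tested genes. HSPA2, HSPA9, DNAJB6 and BAG3 were lowest in freshly laid embryos and highest in hypoxia. As a share of all counts, without TMM scaling, the members took 1.35 ± 0.109% of freshly laid, 1.61 ± 0.0470% of normoxia and 1.17 ± 0.0318% of hypoxia libraries (SD, n = 5 each). HSP90AB1 alone took 0.383%, 0.286% and 0.511% of the counts in these groups. Without it the other members took 0.971 ± 0.0637%, 1.33 ± 0.0452% and 0.662 ± 0.0350%, and these ranges of libraries did not overlap.

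**Figure D1:**
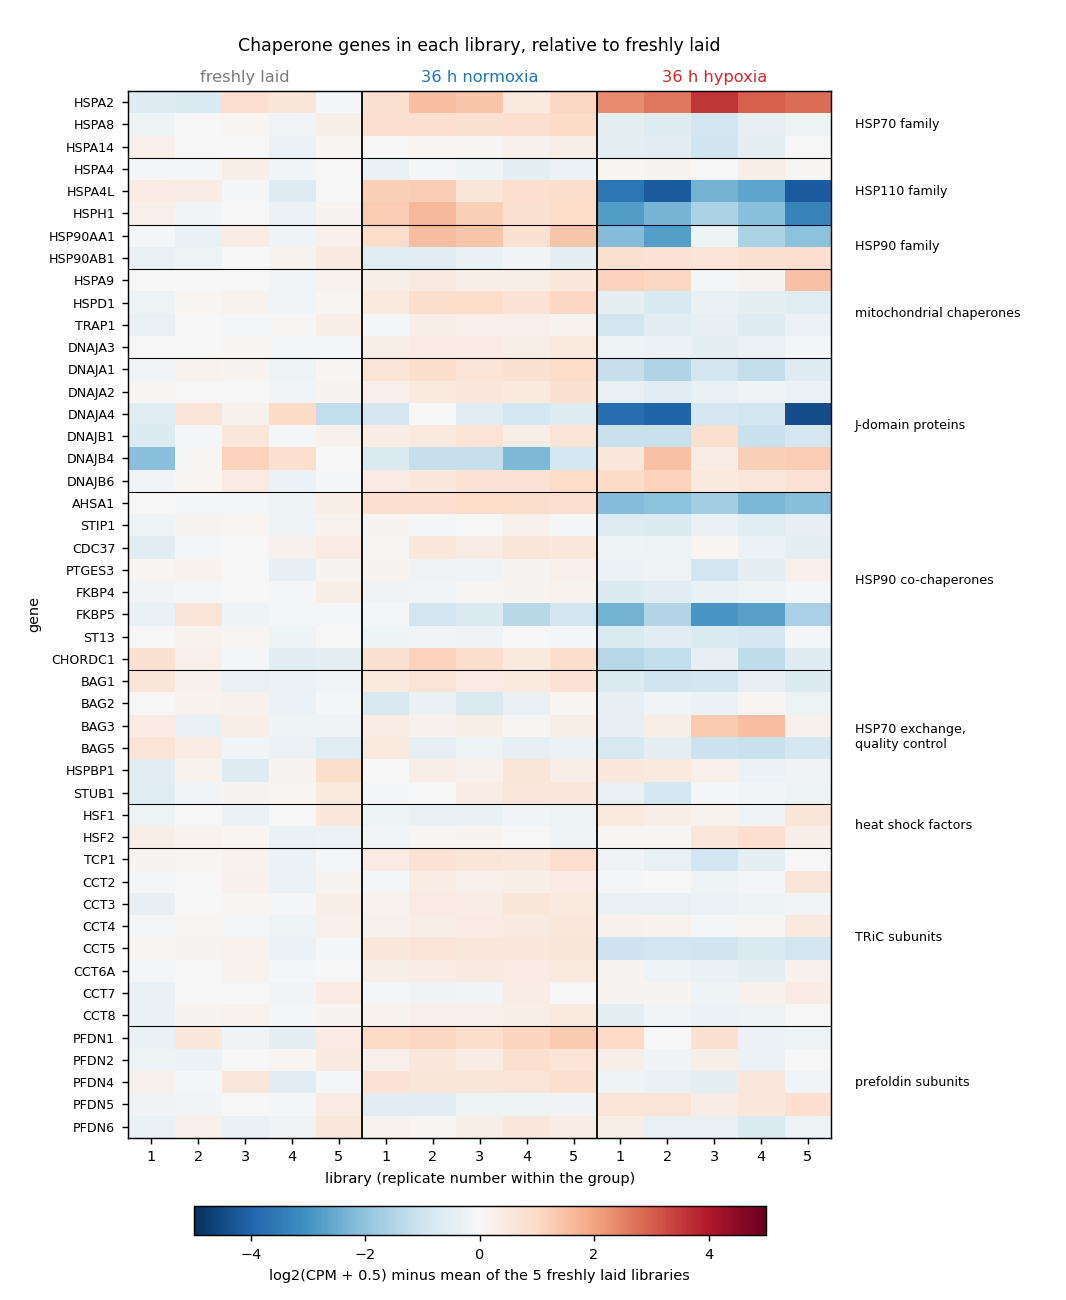
Level of each tested member in every library as log2(CPM + 0.5) minus the mean of the 5 freshly laid libraries, with members in rows by role and libraries in columns by group. Blue dominates the hypoxia columns, deeply so for HSPA4L, HSPH1, AHSA1 and FKBP5 in all 5, while HSPA2 is red in all 5 hypoxia libraries, and DNAJA4 is deep blue in hypoxia libraries 1, 2 and 5 only.

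**Figure D2:**
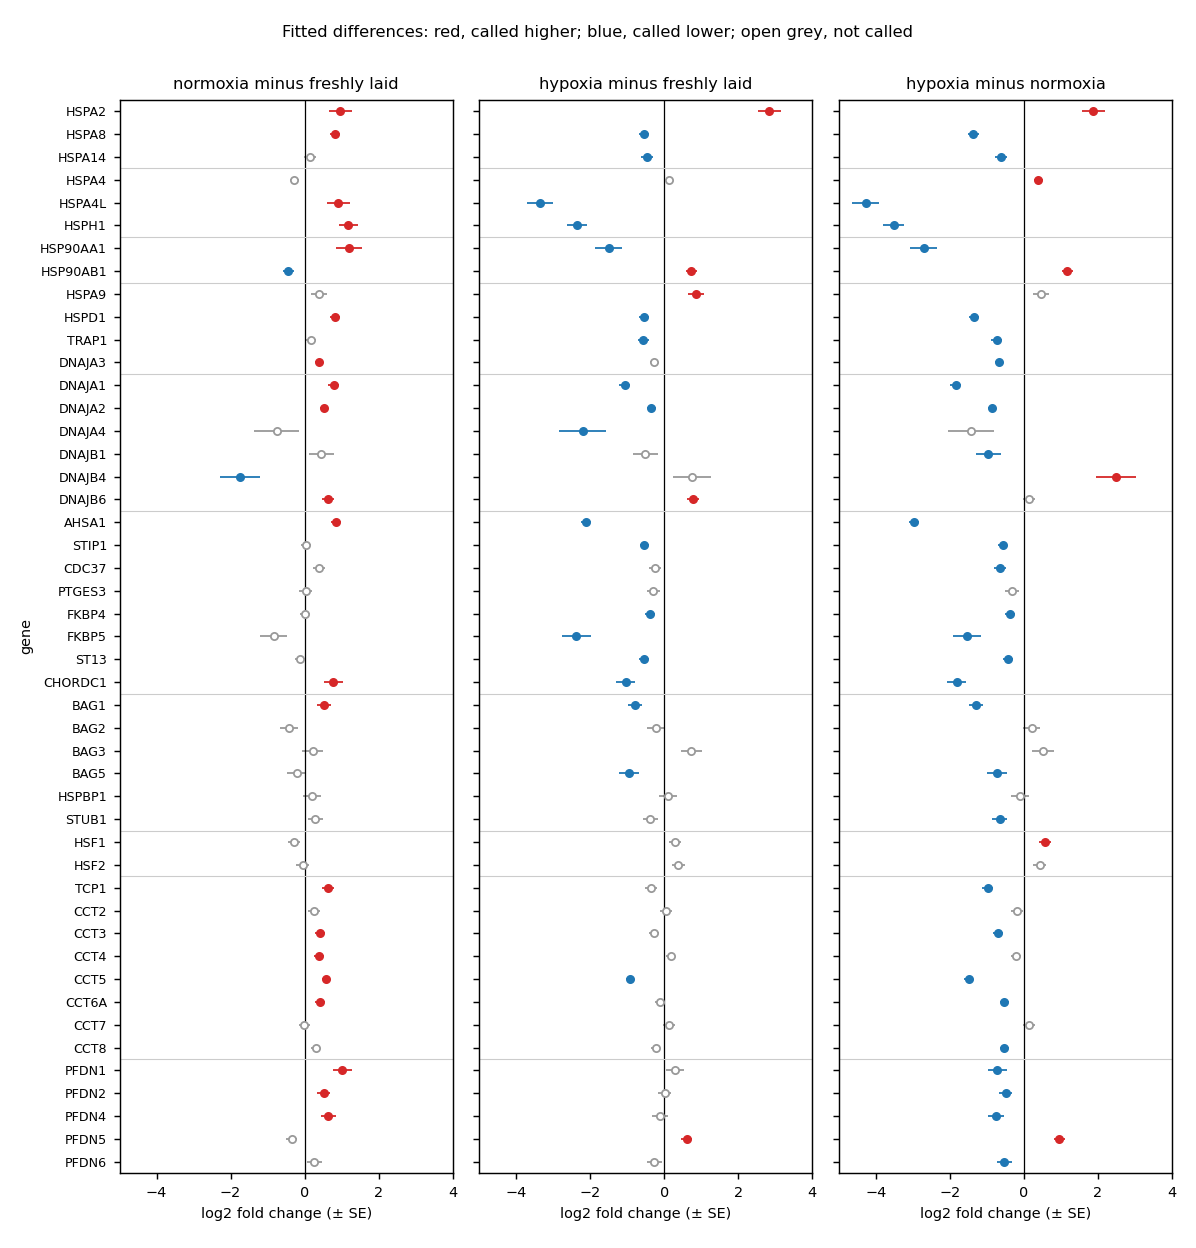
Fitted log2 fold change with its SE for each tested member in the 3 comparisons, with members in rows by role. Filled red points were called higher, filled blue points lower and open grey points were not called: 21 red and 2 blue in normoxia against freshly laid, 5 and 19 in hypoxia against freshly laid, 6 and 30 in hypoxia against normoxia.

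In the HSP70 family HSPA8 and HSPA2 went in opposite directions in hypoxia. HSPA8 encodes the constitutive cytosolic HSP70, which folds new proteins and serves housekeeping traffic. Its 5 freshly laid libraries held 1030, 1182, 1296, 1104 and 1493 CPM, the normoxia libraries 2090, 2156, 2069, 2173 and 2330 CPM, and the hypoxia libraries 857, 776, 628, 907 and 1024 CPM. The 3 groups did not overlap, although the highest hypoxia library (1024 CPM) lay just under the lowest freshly laid library (1030 CPM). HSPA8 was 1.77-fold higher in normoxia than in freshly laid embryos (log2 0.83 ± 0.14 SE, adjusted p = 0.000342), 1.46-fold lower in hypoxia than in freshly laid (adjusted p = 0.00442) and 2.58-fold lower in hypoxia than in normoxia (log2 -1.37 ± 0.14 SE, adjusted p = 6.17e-07).

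HSPA2 encodes an HSP70 that in mammals is best known from developing sperm. It held 10.9, 10.9, 30.8, 27.2 and 16.8 CPM across the freshly laid group, 30.1, 50.8, 46.5, 24.7 and 36.2 CPM in normoxia and 93.4, 113, 216, 143 and 126 CPM in hypoxia. Every hypoxia library lay above every other library, and the freshly laid and normoxia ranges overlapped. HSPA2 was 7.15-fold higher in hypoxia than in freshly laid embryos (log2 2.84 ± 0.32 SE, adjusted p = 4.36e-06) and 3.67-fold higher than in normoxia (adjusted p = 8.82e-05). Its 1.95-fold higher level in normoxia than in freshly laid (adjusted p = 0.0232) lost its call when any of 4 libraries was left out (freshly laid 1 or 2, normoxia 2 or 3; adjusted p = 0.0559 to 0.0628). HSPA14, an HSP70 relative bound to ribosomes, held 96.9 ± 12.8 CPM across the freshly laid group, 107 ± 9.27 CPM in normoxia and 69.9 ± 17.8 CPM in hypoxia (SD, n = 5 each). It fell 1.53-fold in hypoxia against normoxia (adjusted p = 0.0042). Its lower level against freshly laid (adjusted p = 0.0255) lost the call without freshly laid 1, hypoxia 2 or hypoxia 3 (adjusted p = 0.051 to 0.0643). Per kilobase of annotated exon, which allows levels of different genes to be compared, HSPA8 stood 40.4 to 108 times above HSPA2 in freshly laid libraries, 42.2 to 87.4 times in normoxia and 2.89 to 9.13 times in hypoxia. These paralogs are similar in sequence, and only reads mapped with a quality of at least 10 were counted.

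The HSP110 proteins exchange the nucleotide of HSP70 and hold unfolded clients. Of the 3 genes, HSPH1 and HSPA4L had the largest falls of all members in hypoxia against normoxia, while HSPA4 was called in that comparison alone, and higher. HSPA4L held 67.0, 64.9, 46.0, 31.5 and 48.8 CPM across the freshly laid group, 113, 117, 75.1, 88.5 and 92.97 CPM in normoxia and 3.65, 2.30, 9.21, 7.63 and 2.32 CPM in hypoxia. No groups overlapped, and hypoxia libraries 3 and 4 were the highest of their group. The fall was 19.4-fold against normoxia (log2 -4.28 ± 0.37 SE, adjusted p = 9.99e-08) and 10.3-fold against freshly laid (log2 -3.36 ± 0.35 SE, adjusted p = 2.27e-06). Without hypoxia libraries 3 and 4, a setting chosen after seeing the data, these log2 values were -5.14 and -4.22. The rise in normoxia against freshly laid (1.89-fold, adjusted p = 0.0367) lost its call when any of 7 libraries was left out, namely freshly laid 3, 4 or 5 or normoxia 1, 2, 4 or 5 (adjusted p = 0.0512 to 0.0929).

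HSPH1, the heat-inducible HSP110, held 85.1, 64.9, 72.5, 57.5 and 78.7 CPM in freshly laid embryos. It held 174, 218, 164, 120 and 134 CPM in normoxia and 9.84, 13.9, 23.7, 16.4 and 6.50 CPM in hypoxia. Again no library of a group reached into another group. HSPH1 rose 2.26-fold in normoxia against freshly laid (adjusted p = 0.00262) and fell 5.10-fold in hypoxia against freshly laid (adjusted p = 5.13e-06) and 11.5-fold against normoxia (log2 -3.53 ± 0.28 SE, adjusted p = 4.54e-08). HSPA4, the constitutive HSP110, held 172 ± 23.4 CPM, 142 ± 14.8 CPM and 186 ± 17.3 CPM in freshly laid, normoxia and hypoxia (SD, n = 5 each). Its 1.31-fold higher level in hypoxia against normoxia was called (adjusted p = 0.014), but not with library totals alone (log2 0.06, adjusted p = 0.691). Per kilobase, HSPA4 was at 1.66 to 2.60 times HSPH1 in freshly laid libraries, 0.671 to 0.932 times in normoxia and 6.36 to 24.1 times in hypoxia, so that the order of the pair differed between normoxia and both other groups.

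The cytosolic HSP90 genes moved in opposite directions. HSP90AA1, the inducible HSP90, held 196, 162, 264, 178 and 244 CPM across the freshly laid group, 393, 593, 533, 352 and 539 CPM in normoxia and 45.6, 29.6, 176, 67.8 and 48.7 CPM in hypoxia. Normoxia stood above all other libraries. In hypoxia, library 3 lay within the freshly laid range and the other 4 libraries below it. HSP90AA1 rose 2.31-fold in normoxia against freshly laid (adjusted p = 0.0153), a call that was lost when neighbouring normoxia libraries were summed (adjusted p = 0.0612). It fell 2.84-fold in hypoxia against freshly laid (log2 -1.51 ± 0.36 SE, adjusted p = 0.00275) and 6.56-fold against normoxia (log2 -2.71 ± 0.37 SE, adjusted p = 1.37e-05). Leaving out hypoxia 3 gave -2.12 and -3.33 on the log2 scale, and leaving out hypoxia 3 and 4 together gave -2.34 and -3.54.

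HSP90AB1 encodes the constitutive HSP90, whose loss is lethal to mouse embryos, and it had the highest level per kilobase of all members in each group. Its libraries held 2712, 2941, 3574, 3963 and 4766 CPM across the freshly laid group, 2323, 2368, 2775, 3207 and 2566 CPM in normoxia and 5972, 5727, 5693, 5895 and 6377 CPM in hypoxia. The hypoxia libraries were close together and above all others, while freshly laid and normoxia overlapped. HSP90AB1 rose 1.65-fold in hypoxia against freshly laid (log2 0.72 ± 0.15 SE, adjusted p = 0.000981) and 2.24-fold against normoxia (log2 1.16 ± 0.15 SE, adjusted p = 7.7e-06). Its 1.36-fold lower level in normoxia than in freshly laid (adjusted p = 0.032) lost its call when any of 7 libraries was left out, namely freshly laid 3, 4 or 5 or normoxia 1, 2, 3 or 5 (adjusted p = 0.0508 to 0.0794). The ratio of HSP90AB1 to HSP90AA1 per kilobase was 14.1 to 23.2 in freshly laid libraries, 4.16 to 9.48 in normoxia and 33.8 to 201 in hypoxia. These 3 ranges did not overlap, and the lowest hypoxia ratio belonged to library 3.

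**Figure D3:**
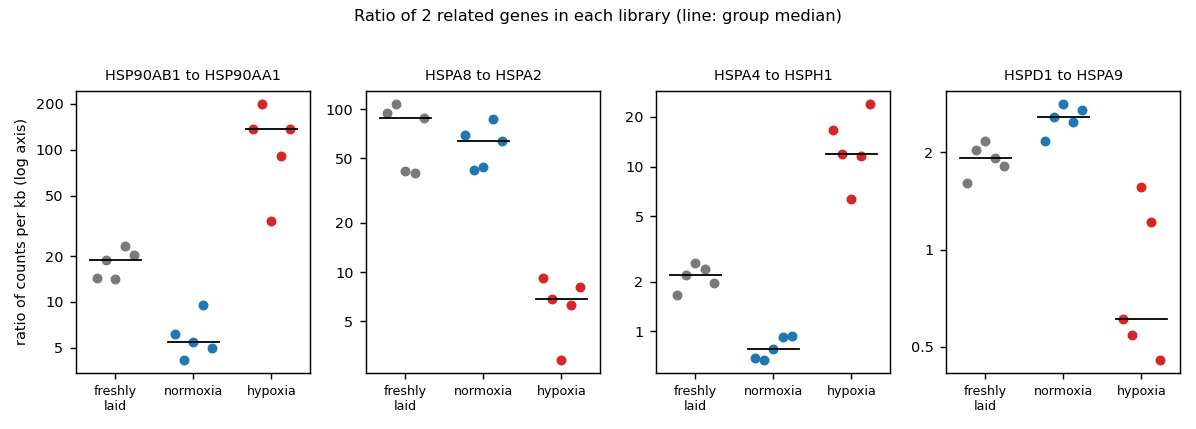
Ratio of 2 related chaperone genes in each library, as counts per kilobase of exon on a log axis, with a line at each group's median. The HSP90AB1 to HSP90AA1 ratio has its medians at 18.9, 5.42 and 136 in freshly laid, normoxia and hypoxia, and the HSPA8 to HSPA2 ratio at 88.7, 64.0 and 6.86.

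Among the mitochondrial chaperones, HSPD1 and HSPA9 parted in hypoxia. HSPD1 is the chaperonin that folds proteins imported into the matrix. It held 502, 632, 661, 545 and 636 CPM across the freshly laid group, 837, 1100, 1108, 973 and 1219 CPM in normoxia and 418, 346, 465, 421 and 389 CPM in hypoxia. The 3 groups did not overlap. HSPD1 rose 1.76-fold in normoxia against freshly laid (log2 0.82 ± 0.13 SE, adjusted p = 0.000227) and fell 1.46-fold in hypoxia against freshly laid (adjusted p = 0.00281) and 2.57-fold against normoxia (log2 -1.36 ± 0.13 SE, adjusted p = 3.5e-07).

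HSPA9, the mitochondrial HSP70 that pulls proteins through the inner membrane, held 395, 393, 386, 359 and 444 CPM across the freshly laid group, and the normoxia libraries held 489, 543, 496, 495 and 572 CPM. In hypoxia the libraries fell apart into 869, 807 and 1083 CPM in libraries 1, 2 and 5 and 379 and 437 CPM in libraries 3 and 4, the latter within the freshly laid range. The mean difference was 1.81-fold higher in hypoxia than in freshly laid (log2 0.85 ± 0.22 SE, adjusted p = 0.00505). Against normoxia it was not called (log2 0.46 ± 0.22 SE, adjusted p = 0.09), but it was without hypoxia 3 (0.62, adjusted p = 0.0104), without hypoxia 4 (0.60, adjusted p = 0.0256) or without both (0.83, adjusted p = 7.47e-05). In normoxia against freshly laid it was not called either (log2 0.39 ± 0.22 SE, adjusted p = 0.183), although these ranges did not overlap. It was called with only these 2 groups fitted (log2 0.38, adjusted p = 0.0101) and without hypoxia 3 and 4 (adjusted p = 0.0144). HSPD1 exceeded HSPA9 per kilobase by 1.61 to 2.17 times in freshly laid libraries and 2.17 to 2.83 times in normoxia, and stood at 0.456 to 1.56 times in hypoxia. TRAP1, the HSP90 of mitochondria, held 177 ± 31.3, 199 ± 19.3 and 119 ± 19.9 CPM (SD, n = 5 each) and fell 1.48-fold in hypoxia against freshly laid (adjusted p = 0.00533) and 1.67-fold against normoxia (adjusted p = 0.000507). DNAJA3, the J-domain partner of HSPA9, held 55.9 ± 2.83, 73.4 ± 3.57 and 46.2 ± 5.11 CPM. It fell 1.59-fold in hypoxia against normoxia (adjusted p = 9.82e-05). Its 1.31-fold higher level in normoxia than in freshly laid (adjusted p = 0.0127) lost its call with title number classes as a covariate (adjusted p = 0.057) and with neighbouring normoxia libraries summed (adjusted p = 0.0667). Against freshly laid, its lower hypoxia level (log2 -0.28, adjusted p = 0.0562) became a call without freshly laid 5 or hypoxia 5 (adjusted p = 0.0473 and 0.0257). With all libraries it was called under DESeq2 (adjusted p = 0.0241) and with library totals alone (adjusted p = 0.000266).

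The 6 J-domain proteins differed in direction, with 3 lower and 1 higher in hypoxia against normoxia. Of all tested genes, 23.2% were lower and 25.7% higher there. DNAJA1, a main partner of HSPA8, held 199, 250, 244, 184 and 228 CPM across the freshly laid group, 354, 405, 354, 371 and 415 CPM in normoxia and 97.3, 76.8, 116, 95.1 and 141 CPM in hypoxia. The groups stood apart without overlap. DNAJA1 rose 1.72-fold in normoxia against freshly laid (adjusted p = 0.000977), and fell 2.10-fold in hypoxia against freshly laid (log2 -1.07 ± 0.15 SE, adjusted p = 3.39e-05) and 3.61-fold against normoxia (log2 -1.85 ± 0.15 SE, adjusted p = 6.77e-08). Its relative DNAJA2 held 128 ± 8.51, 184 ± 22.7 and 101 ± 8.63 CPM (SD, n = 5 each). It rose 1.44-fold in normoxia (adjusted p = 0.00268) and fell 1.83-fold in hypoxia against normoxia (adjusted p = 1.06e-05), while its 1.27-fold lower level against freshly laid (adjusted p = 0.0229) lost its call without hypoxia 2 (adjusted p = 0.0619).

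DNAJB4, a close relative of the heat-inducible DNAJB1, was at low levels throughout, with 0.628, 4.60, 10.3, 8.07 and 4.45 CPM across the freshly laid group, 2.41, 1.66, 1.66, 0.532 and 2.10 CPM in normoxia and 6.66, 12.9, 5.81, 10.6 and 11.3 CPM in hypoxia. Hypoxia and normoxia did not overlap, and freshly laid libraries spanned both. DNAJB4 was 5.63-fold higher in hypoxia than in normoxia (log2 2.49 ± 0.54 SE, adjusted p = 0.00105). Its 3.35-fold lower level in normoxia than in freshly laid (adjusted p = 0.0193) lost its call without freshly laid 3 (adjusted p = 0.0565). With all libraries it was also lost under limma-voom (adjusted p = 0.0949) and with neighbouring normoxia libraries summed (adjusted p = 0.0746). The same held with title number classes (adjusted p = 0.0947) or column index classes (adjusted p = 0.138) as a covariate. DNAJB6, which keeps aggregation-prone proteins soluble, held 78.6 ± 15.9, 123 ± 16.7 and 135 ± 25.9 CPM. It rose 1.56-fold in normoxia (adjusted p = 0.00637) and 1.72-fold in hypoxia (adjusted p = 0.00101) against the shared freshly laid libraries. Its levels in hypoxia and normoxia were not called different (log2 0.14 ± 0.16 SE, adjusted p = 0.488).

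The hypoxia libraries differed among themselves for DNAJA4 and DNAJB1. DNAJA4, a DNAJA1 relative, held 57.3, 135, 101, 167 and 36.4 CPM across the freshly laid group, and the normoxia libraries held 48.5, 84.4, 58.9, 47.1 and 54.8 CPM. Its hypoxia libraries held 5.62, 4.92, 48.3, 45.6 and 3.51 CPM, so that libraries 3 and 4 lay within the freshly laid range and the other 3 libraries far below every library of both other groups. The mean fall was 4.61-fold against freshly laid (log2 -2.20 ± 0.63 SE, adjusted p = 0.0104), -2.90 on the log2 scale with limma-voom and -4.40 without hypoxia 3 and 4. Against normoxia it was not called (log2 -1.44 ± 0.62 SE, adjusted p = 0.063), but was without hypoxia 3 (-1.98, adjusted p = 0.0164), hypoxia 4 (-1.91, adjusted p = 0.024) or both (-3.64, adjusted p = 9.14e-06). It was also called with all libraries under limma-voom (-2.32, adjusted p = 0.00507), with title number classes (-2.37, adjusted p = 0.00231) or column index classes (-1.95, adjusted p = 0.0304) as a covariate, and with library totals alone (-1.72, adjusted p = 0.0347). DNAJB1, the J-domain protein that works with HSP70 in dissolving aggregates, held 19.97, 31.3, 49.0, 31.4 and 38.1 CPM across the freshly laid group, 42.0, 45.8, 52.7, 40.9 and 50.7 CPM in normoxia and 14.7, 14.7, 57.2, 14.8 and 17.3 CPM in hypoxia. Library 3 alone lay above every other library of all groups. DNAJB1 fell 1.96-fold in hypoxia against normoxia (adjusted p = 0.0269). That call was lost when any of 6 libraries was left out, namely normoxia 3 or 5 or hypoxia 1, 2, 4 or 5 (adjusted p = 0.0506 to 0.0682), and without hypoxia 3 the log2 value went from -0.97 to -1.59 (adjusted p = 1.35e-05). Against freshly laid it was not called (log2 -0.52, adjusted p = 0.243), but was without hypoxia 3 (-1.14, adjusted p = 0.000443).

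**Figure D4:**
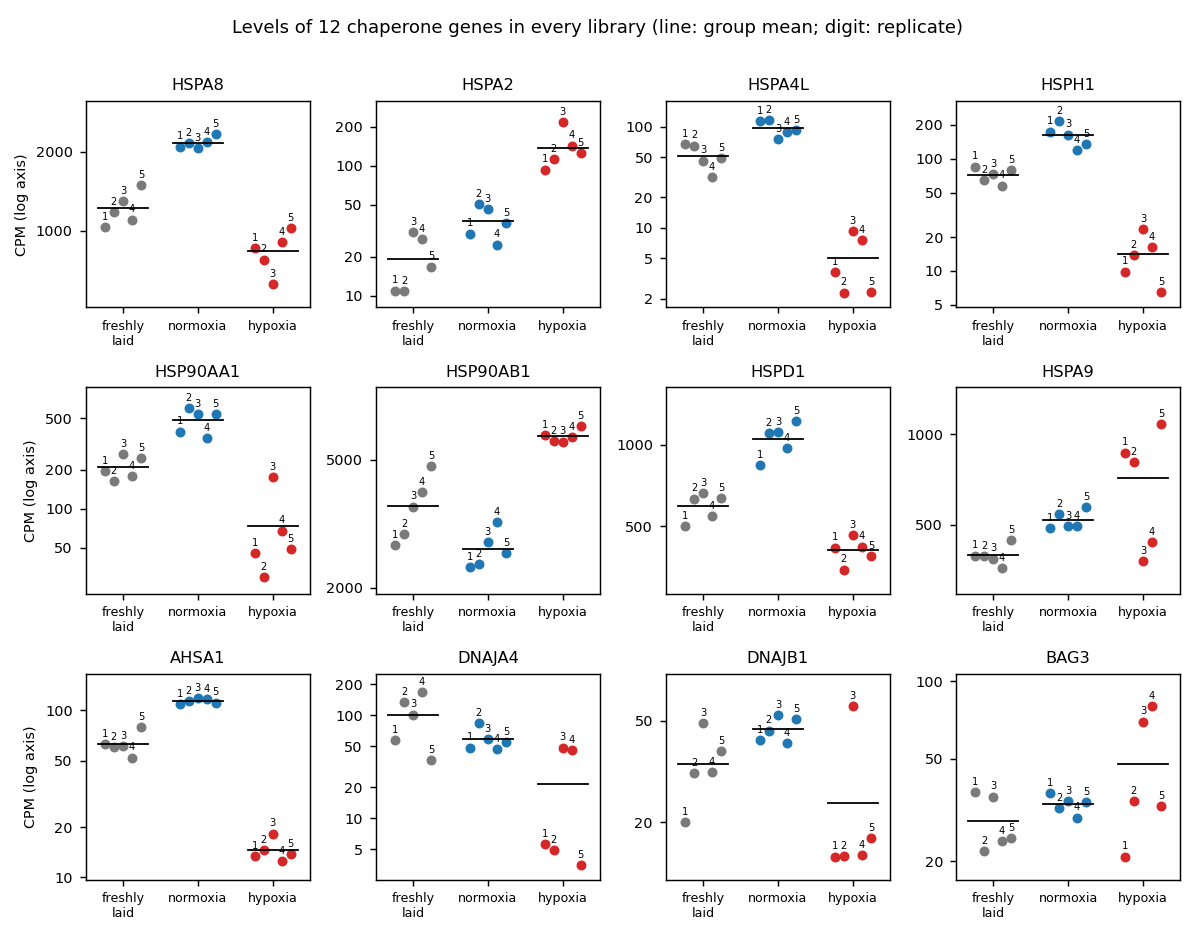
CPM of 12 members in each library on a log axis, with the replicate number beside each point and a line at the group mean. The normoxia, freshly laid and hypoxia libraries of HSPA8, HSPA4L, HSPH1, HSPD1 and AHSA1 do not overlap, whereas hypoxia libraries 3 and 4 of HSPA9 (379 and 437 CPM), DNAJA4 (48.3 and 45.6 CPM) and BAG3 (69.7 and 80.0 CPM) sit apart from the other 3.

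Of the 8 HSP90 co-chaperones, none rose and 7 fell in hypoxia against normoxia, and 6 fell against freshly laid. Against normoxia 25.7% of all tested genes were higher and 23.2% lower, and against freshly laid 19.4% were lower. AHSA1, which speeds up the ATP cycle of HSP90, had the smallest adjusted p of all members. It held 62.9, 60.4, 60.8, 52.1 and 79.5 CPM across the freshly laid group, 109, 114, 119, 117 and 111 CPM in normoxia and 13.4, 14.6, 18.3, 12.5 and 13.7 CPM in hypoxia. The groups were far apart. AHSA1 rose 1.80-fold in normoxia against freshly laid (adjusted p = 0.000215), and fell 4.35-fold in hypoxia against freshly laid (log2 -2.12 ± 0.14 SE, adjusted p = 2.49e-08) and 7.84-fold against normoxia (log2 -2.97 ± 0.14 SE, adjusted p = 1.64e-10).

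FKBP5, an immunophilin that tempers steroid receptor signalling, was low, with 8.61, 17.3, 9.35, 10.5 and 10.6 CPM across the freshly laid group, 10.4, 5.45, 6.61, 3.81 and 5.44 CPM in normoxia and 1.74, 3.61, 1.01, 1.24 and 3.18 CPM in hypoxia. Each hypoxia library lay below all others. The fall was 5.21-fold against freshly laid (log2 -2.38 ± 0.39 SE, adjusted p = 0.000129) and 2.93-fold against normoxia (adjusted p = 0.0026). The lower level in normoxia than in freshly laid was not called (log2 -0.83 ± 0.36 SE, adjusted p = 0.0925), but was without normoxia 1 (-1.08, adjusted p = 0.0405). It was also called under limma-voom (-0.87, adjusted p = 0.0257) and with only the groups compared (-0.84, adjusted p = 0.0408). FKBP4, a relative of FKBP5 which helps steroid receptors mature, held 380 ± 49.3, 383 ± 42.0 and 293 ± 47.0 CPM (SD, n = 5 each). FKBP4 was called 1.30-fold lower in hypoxia than in freshly laid (adjusted p = 0.0342) and 1.31-fold lower than in normoxia (adjusted p = 0.0252). Those calls were lost without freshly laid 5 or hypoxia 1 or 2 (adjusted p = 0.0703 to 0.0886), and without normoxia 3, 4 or 5 or hypoxia 1 or 2 (adjusted p = 0.0503 to 0.0684).

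CHORDC1, a zinc-binding HSP90 partner, held 45.9, 31.4, 25.4, 18.5 and 19.5 CPM across the freshly laid group, 45.4, 60.0, 49.1, 37.5 and 48.8 CPM in normoxia and 9.67, 11.2, 19.8, 10.8 and 16.8 CPM in hypoxia. Hypoxia and normoxia did not overlap, and both reached into the freshly laid range. CHORDC1 fell 3.54-fold in hypoxia against normoxia (log2 -1.82 ± 0.26 SE, adjusted p = 2.24e-05) and 2.06-fold against freshly laid (adjusted p = 0.00363). The 1.71-fold higher level in normoxia than in freshly laid (adjusted p = 0.0272) lost its call when any of 6 libraries was left out, namely freshly laid 3, 4 or 5 or normoxia 2, 3 or 5 (adjusted p = 0.051 to 0.073).

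STIP1, which bridges HSP70 and HSP90, held 134 ± 17.5 and 138 ± 12.4 CPM in freshly laid and normoxia (SD, n = 5 each) and 82.1 to 107 CPM in hypoxia. It fell 1.46-fold against freshly laid (adjusted p = 0.00247) and 1.496-fold against normoxia (adjusted p = 0.00102), with no overlap in either comparison. ST13, an HSP70-binding member of the same relay, held 657 ± 62.9, 604 ± 36.8 and 447 ± 108 CPM, the last with library 5 at 632 CPM and the others at 365 to 449 CPM. It fell 1.47-fold against freshly laid (adjusted p = 0.00475) and 1.35-fold against normoxia (adjusted p = 0.0176), the latter not called without hypoxia 3 and 4 (adjusted p = 0.123) or with neighbouring normoxia libraries summed (adjusted p = 0.0706). CDC37, the HSP90 partner for kinases, held 255 ± 57.7, 337 ± 45.4 and 215 ± 32.5 CPM and fell 1.57-fold in hypoxia against normoxia (adjusted p = 0.0032). Its higher level in normoxia than in freshly laid (log2 0.40, adjusted p = 0.0691) was called without freshly laid 5 or normoxia 1 (adjusted p = 0.028 and 0.0388). With all libraries it was called under DESeq2 (adjusted p = 0.0424) and with column index classes as a covariate (adjusted p = 0.0266). PTGES3, the p23 protein that stabilises closed HSP90, was not called in any comparison (469.5 ± 68.1, 478 ± 67.3 and 383 ± 117 CPM). Without hypoxia 5 it was called lower against both freshly laid (adjusted p = 0.0384) and normoxia (adjusted p = 0.0249). With library totals alone it was also called lower against both (adjusted p = 0.00544 and 0.00288).

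Of the 6 genes for HSP70 nucleotide exchange and quality control, 3 fell in hypoxia against normoxia and 2 against freshly laid, and none rose. The shares over all tested genes were 23.2% lower and 25.7% higher against normoxia, and 19.4% lower and 20.9% higher against freshly laid. BAG1, which stimulates nucleotide release and links HSP70 to the proteasome, held 40.6, 30.7, 20.6, 21.6 and 23.9 CPM across the freshly laid group, 37.3, 41.9, 35.8, 37.1 and 44.2 CPM in normoxia and 16.4, 13.1, 13.7, 20.2 and 16.2 CPM in hypoxia. Each hypoxia library was below all others, the highest (20.2 CPM) just under freshly laid 3 (20.6 CPM). BAG1 fell 2.47-fold in hypoxia against normoxia (log2 -1.30 ± 0.19 SE, adjusted p = 3.21e-05) and 1.73-fold against freshly laid (adjusted p = 0.00347). Its 1.43-fold higher level in normoxia than in freshly laid (adjusted p = 0.0469) lost its call when any of 11 libraries was left out, which spares only freshly laid 1 and hypoxia 2, 3 and 4 (adjusted p = 0.051 to 0.117).

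BAG5, a BAG-domain protein with repeated domains, held 17.1 ± 6.39, 14.7 ± 4.52 and 8.77 ± 1.79 CPM (SD, n = 5 each). It fell 1.94-fold in hypoxia against freshly laid (adjusted p = 0.00908), not called without hypoxia 3 and 4 (adjusted p = 0.0568), and 1.67-fold against normoxia (adjusted p = 0.0299), a call lost without normoxia 1 or hypoxia 3, 4 or 5 (adjusted p = 0.0521 to 0.107). STUB1, the ubiquitin ligase that marks chaperone clients for destruction, held 61.8 ± 16.9, 75.2 ± 15.04 and 47.5 ± 9.17 CPM and fell 1.58-fold in hypoxia against normoxia (adjusted p = 0.0119), not called with neighbouring normoxia libraries summed (adjusted p = 0.0526). Against freshly laid (log2 -0.38, adjusted p = 0.146) it was called without freshly laid 1 (adjusted p = 0.0436). BAG3, which directs clients to autophagy and is a heat shock target in mammals, was not called in any comparison. Its hypoxia libraries held 20.8, 34.2, 69.7, 80.0 and 32.6 CPM, the freshly laid libraries 37.1, 21.9, 35.6, 23.9 and 24.6 CPM and the normoxia libraries 36.7, 32.2, 34.2, 29.5 and 33.9 CPM, so that only hypoxia 3 and 4 exceeded the other groups. The log2 difference of hypoxia from freshly laid was 0.73 ± 0.29 SE (adjusted p = 0.053) and 0.03 without those libraries, and it was called when freshly laid 1 or 3 or hypoxia 1, 2 or 5 was left out (adjusted p = 0.0095 to 0.0484). With all libraries it was called under DESeq2 (0.72, adjusted p = 0.0368). Against normoxia it was 0.51 ± 0.29 SE (adjusted p = 0.152), and called without hypoxia 1 (0.70, adjusted p = 0.031). BAG2, which restrains STUB1, and HSPBP1, an exchange factor, were not called in any comparison, with group means of 6.13 to 8.26 CPM and 93.7 to 108 CPM.

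The heat shock factors did not fall with the chaperones. HSF1 held 107 ± 26.8 CPM across the freshly laid group, 88.2 ± 5.27 CPM in normoxia and 131 ± 25.3 CPM in hypoxia (SD, n = 5 each). It was 1.48-fold higher in hypoxia than in normoxia (log2 0.57 ± 0.17 SE, adjusted p = 0.00911), with hypoxia 4 (94.0 CPM) inside the normoxia range. With library totals alone the difference was 0.23 (adjusted p = 0.201). Against freshly laid HSF1 was not called in hypoxia (log2 0.28, adjusted p = 0.184), but was without freshly laid 5 (0.43, adjusted p = 0.0292). HSF2, a partner of HSF1 known from germ cells and embryos in mammals, was not called in any comparison, with 32.9 ± 6.49, 31.8 ± 2.73 and 42.8 ± 10.2 CPM. Hypoxia 3 and 4 held its highest values, 48.0 and 57.8 CPM. Its difference of hypoxia from normoxia (log2 0.43 ± 0.17 SE, adjusted p = 0.0513) was called without freshly laid 1 or 4 or hypoxia 1 or 2 (adjusted p = 0.03 to 0.0476). The RNA level does not report HSF1 activity, which is largely set on the protein. HSPB1, a small heat shock protein that holds unfolded clients, had too few counts to be tested in the main fit. It had 65 counts over the 5 freshly laid libraries, 22 in normoxia and 21 in hypoxia.

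The 8 TRiC subunits are each present equally in the complex. Their RNA levels per kilobase were within 1.63 times of each other in freshly laid embryos, 1.61 times in normoxia and 2.19 times in hypoxia. In normoxia against freshly laid 5 of 8 rose and none fell, and in hypoxia against normoxia 5 of 8 fell and none rose. All tested genes were 15.2% higher and 16.1% lower in the first comparison, and 23.2% lower and 25.7% higher in the second. CCT5 held 334, 358, 362, 265 and 311 CPM across the freshly laid group, 466.0, 510, 476, 484 and 496 CPM in normoxia and 159, 169, 161, 197 and 173 CPM in hypoxia. The groups did not overlap, and CCT5 was the only subunit called in hypoxia against freshly laid (1.90-fold lower, log2 -0.92 ± 0.11 SE, adjusted p = 8.75e-06), although TCP1, CCT3, CCT6A and CCT8 were also called lower there with library totals alone (adjusted p = 0.000774, 0.000496, 0.00366 and 0.000813). It rose 1.49-fold in normoxia against freshly laid (adjusted p = 0.00106) and fell 2.83-fold in hypoxia against normoxia (log2 -1.50 ± 0.11 SE, adjusted p = 2.48e-08). Per kilobase its level was the third highest of the TRiC subunits in freshly laid embryos and the lowest in hypoxia.

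TCP1, the first described subunit of TRiC, held 246 ± 32.1, 380 ± 41.2 and 192 ± 44.3 CPM (SD, n = 5 each), rose 1.54-fold in normoxia (adjusted p = 0.00659) and fell 1.98-fold in hypoxia against normoxia (adjusted p = 7.07e-05). Its lower level in hypoxia than in freshly laid (log2 -0.36, adjusted p = 0.0751) was called without freshly laid 4 or hypoxia 5 (adjusted p = 0.0454 and 0.0262). CCT3 held 316 ± 54.6, 420 ± 46.4 and 259 ± 17.5 CPM and fell 1.62-fold in hypoxia against normoxia (adjusted p = 0.000304). CCT6A held 386 ± 29.9, 511 ± 27.9 and 354 ± 74.9 CPM and fell 1.44-fold (adjusted p = 0.0034), as did CCT8 (adjusted p = 0.00245) with 503 ± 71.1, 617 ± 54.5 and 427 ± 53.6 CPM. The rises of CCT3, CCT4 and CCT6A in normoxia against freshly laid were 1.33-fold, 1.31-fold and 1.32-fold (adjusted p = 0.0244, 0.0276 and 0.0289). They were lost when any of 4, 6 and 6 libraries was left out, with adjusted p of at most 0.0665, 0.0752 and 0.0663. CCT3 lost its call without freshly laid 1 or 4 or normoxia 4 or 5, CCT4 without freshly laid 1, 3 or 4 or normoxia 3, 4 or 5, and CCT6A without freshly laid 1, 2 or 4 or normoxia 3, 4 or 5. CCT7 (394 to 432 CPM in the group means) and CCT2 (282 to 335 CPM) were not called in any comparison. CCT2 and CCT4 were called lower in hypoxia than in normoxia without hypoxia 5 (adjusted p = 0.0321 and 0.0459) and with library totals alone (adjusted p = 0.00322 and 0.000268). CCT3 was called lower in hypoxia than in freshly laid without freshly laid 1 (adjusted p = 0.0234).

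**Figure D5:**
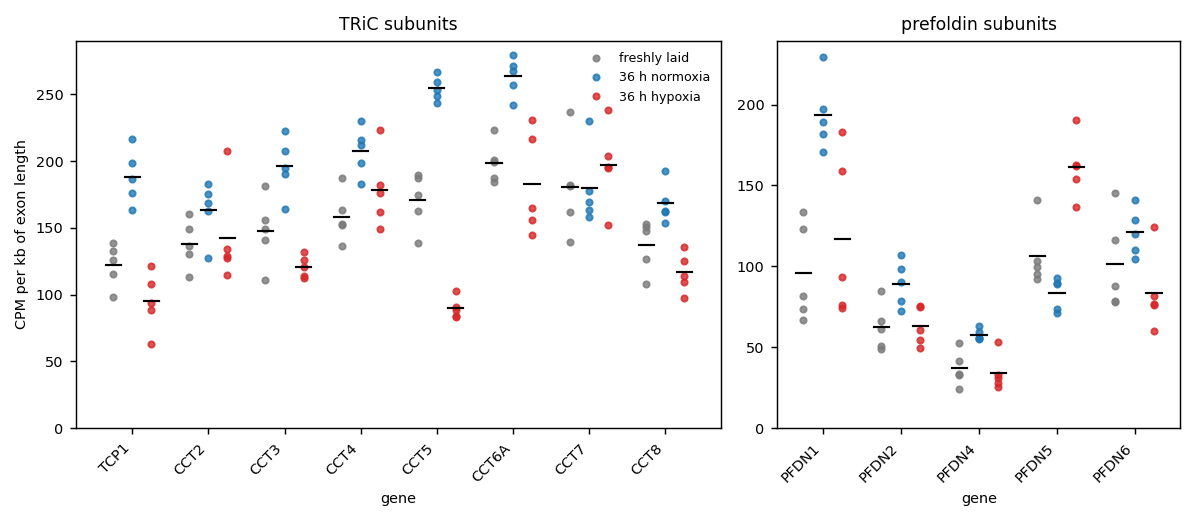
Level of each TRiC subunit (left) and prefoldin subunit (right) in every library as CPM per kilobase of exon length, coloured by group, with a line at each group mean. CCT5 lies at 89.9 in hypoxia against 171 in freshly laid and 254 in normoxia, and PFDN5 at 161, 106 and 83.3, the opposite order.

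Prefoldin hands unfolded actin and tubulin to TRiC. Of its 5 subunits measured here, 3 rose in normoxia against freshly laid, and 4 fell and 1 rose in hypoxia against normoxia. The shares over all tested genes were 15.2% higher in the first comparison, and 23.2% lower and 25.7% higher in the second. In hypoxia against freshly laid 1 rose and none fell, where 20.9% of all tested genes were higher and 19.4% lower. PFDN1, PFDN4 and PFDN6 were not called there (log2 0.29, -0.12 and -0.27, adjusted p = 0.383, 0.674 and 0.297). With library totals alone PFDN6 was called lower there (adjusted p = 0.0182). PFDN1 held 46.4, 84.2, 51.5, 42.3 and 77.6 CPM across the freshly laid group, 115, 119, 108, 124 and 144 CPM in normoxia and 115, 58.9, 100, 46.8 and 48.1 CPM in hypoxia. Normoxia lay above freshly laid without overlap, and hypoxia spanned both. PFDN1 rose 2.02-fold in normoxia against freshly laid (log2 1.01 ± 0.26 SE, adjusted p = 0.00652). It was called 1.65-fold lower in hypoxia than in normoxia (adjusted p = 0.0253), a call lost without normoxia 5 or hypoxia 2, 4 or 5 (adjusted p = 0.0594 to 0.0659). PFDN5, a subunit also known in mammals for binding MYC, went the other way, with 93.7 ± 17.5, 73.5 ± 8.94 and 142 ± 17.2 CPM (SD, n = 5 each). It rose 1.93-fold in hypoxia against normoxia (log2 0.95 ± 0.14 SE, adjusted p = 3.43e-05) and 1.52-fold against freshly laid (adjusted p = 0.0027). The latter was not called with library totals alone (log2 0.29, adjusted p = 0.056). Its level in normoxia was not called different from freshly laid (log2 -0.35, adjusted p = 0.0674). It was called lower there with library totals alone (adjusted p = 0.0405) and with title number classes as a covariate (adjusted p = 0.0354).

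PFDN4 held 30.6 ± 8.80, 47.8 ± 2.83 and 28.2 ± 9.07 CPM and fell 1.70-fold in hypoxia against normoxia (adjusted p = 0.00621). Its 1.56-fold higher level in normoxia than in freshly laid (adjusted p = 0.0277) lost its call without freshly laid 2, 4 or 5 or normoxia 5 (adjusted p = 0.0562 to 0.0738). PFDN2 held 44.4 ± 10.2, 63.4 ± 10.1 and 44.9 ± 8.41 CPM, and hypoxia differed from freshly laid by 0.02 ± 0.18 SE on the log2 scale (adjusted p = 0.952). Its 1.43-fold higher level in normoxia than in freshly laid (adjusted p = 0.0331) and 1.41-fold lower level in hypoxia than in normoxia (adjusted p = 0.0255) lost their calls when any of 7 and of 4 libraries was left out, with adjusted p of at most 0.0877 and 0.0707. The 7 were freshly laid 1, 2, 3 and 4 and normoxia 2, 4 and 5, and the 4 were normoxia 4 and 5 and hypoxia 2 and 4. PFDN6 held 68.7 ± 19.9, 82.0 ± 9.87 and 56.8 ± 16.3 CPM, and its 1.44-fold lower level in hypoxia than in normoxia (adjusted p = 0.0379) was lost without any of 7 libraries, normoxia 3, 4 or 5 or hypoxia 2, 3, 4 or 5 (adjusted p = 0.0599 to 0.0965). The prefoldin subunits spanned 2.87 times per kilobase in freshly laid embryos, 3.35 times in normoxia and 4.73 times in hypoxia.

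Hypoxia libraries 3 and 4 stood apart from the other hypoxia libraries in several of these members. These libraries also lay nearest to the other groups on the first principal component of all genes (56.8 and 67.6, against 78.1 to 98.3 in the other hypoxia libraries). They held the fewest counts of their group (17.6 and 17.8 M, against 19.2 to 20.8 M). Library 3 had the highest sums of its group for yolk and extraembryonic markers (809 CPM, against 127 to 375 CPM), blood markers (113 CPM, against 28.1 to 44.0 CPM) and leukocyte markers (43.1 CPM, against 5.90 to 12.5 CPM). Library 4 held 210 CPM, 44.0 CPM and 8.87 CPM of these lists. Freshly laid 3 and normoxia 2 and 3 are in the title number class of hypoxia 3. For yolk and extraembryonic markers, freshly laid 3 (69.3 CPM) and normoxia 2 (751 CPM) also had the highest sums of their groups. For blood markers normoxia 2 did (91.2 CPM) and freshly laid 3 did not (10.7 CPM). For leukocyte markers neither did (6.70 and 11.9 CPM). HSP90AA1 was highest of its group in freshly laid 3, normoxia 2 and hypoxia 3, and DNAJB1 in freshly laid 3, normoxia 3 and hypoxia 3. DNAJA4 was highest of the freshly laid libraries in library 4. Whether the class has a part in this was not tested. The part of depth and of the marker lists in the values of HSP90AA1, DNAJB1, DNAJA4, HSPA9 and BAG3 was not tested either. Without hypoxia 3 and 4, 6 members were called higher and 18 lower in hypoxia against freshly laid. Of all genes, 3258 were higher and 3168 lower there. Against normoxia 7 members were higher and 27 lower, where 4099 of all genes were higher and 3874 lower. In this setting 48 members were tested, since HSPB1 passed the filter.

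Helpers outside the member list were counted by role, and these small lists were not tested as sets. Of all tested genes, 15.2% were higher and 16.1% lower in normoxia against freshly laid. The shares were 20.9% and 19.4% in hypoxia against freshly laid, and 25.7% and 23.2% in hypoxia against normoxia. Of 29 other co-chaperones tested, 11 were higher and 1 lower in normoxia against freshly laid, 6 higher and 10 lower in hypoxia against freshly laid, and 5 higher and 14 lower in hypoxia against normoxia. TOMM34, which escorts proteins to mitochondria with HSP70 and HSP90, held 16.2 ± 4.93, 54.8 ± 17.01 and 1.83 ± 0.562 CPM in freshly laid, normoxia and hypoxia (SD, n = 5 each), a 30.0-fold fall in hypoxia against normoxia (adjusted p = 2.42e-09). RUVBL1, an ATPase of the HSP90 co-chaperone complex R2TP, fell 3.89-fold (adjusted p = 1.82e-08) in the same comparison, and the J-domain proteins DNAJC9, a histone chaperone, and DNAJC2, bound to ribosomes, fell 2.82-fold and 2.42-fold (adjusted p = 2.74e-07 and 4.02e-06). Of 12 partners of TRiC and prefoldin, 1 was higher and 1 lower in normoxia against freshly laid, none higher and 5 lower in hypoxia against freshly laid, and none higher and 6 lower in hypoxia against normoxia. Those 6 include the prefoldin-like PDRG1 (2.96-fold lower, adjusted p = 3.35e-07), the tubulin-folding regulator ARL2 (2.31-fold, adjusted p = 0.000101), the tubulin cofactor TBCB (1.65-fold, adjusted p = 0.000512) and the TRiC-binding PDCL3 (1.57-fold, adjusted p = 0.00332). Of 14 actins and tubulins, the clients of TRiC, 3 were lower and none higher in normoxia against freshly laid, 3 higher and 3 lower in hypoxia against freshly laid, and 4 higher and 1 lower in hypoxia against normoxia. In that comparison ACTG1 and ACTB, the cytoplasmic actins, rose 2.23-fold and 1.59-fold (adjusted p = 1.54e-05 and 0.00301), ACTG2, a smooth muscle actin, rose 8.09-fold (adjusted p = 5.48e-05), and the tubulin TUBB4A fell 1.38-fold (adjusted p = 0.0165).

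Beside the lists that follow, 15.2% of all tested genes were higher and 16.1% lower in normoxia against freshly laid. These shares were 20.9% and 19.4% in hypoxia against freshly laid, and 25.7% and 23.2% in hypoxia against normoxia. Of 17 genes for mitochondrial protein quality control, none was called in normoxia against freshly laid, 3 were higher and 3 lower in hypoxia against freshly laid, and 3 were higher and 7 lower in hypoxia against normoxia. The nucleotide exchange factors of HSPA9 went in opposite directions there: GRPEL1 fell 1.72-fold (adjusted p = 0.000703) and GRPEL2 rose 2.30-fold (adjusted p = 0.00133). DNAJC19, of the import motor, fell 2.46-fold (adjusted p = 4.8e-06) and the protease YME1L1 1.99-fold (adjusted p = 0.000195). Of 4 other small heat shock proteins tested, 1 was higher in normoxia and 2 in hypoxia against freshly laid, and 1 was higher and 1 lower in hypoxia against normoxia. CRYAB, which holds unfolded proteins in lens and muscle, held 2.13 ± 1.49, 38.1 ± 26.2 and 0.990 ± 0.742 CPM (SD, n = 5 each), a 38.2-fold fall in hypoxia against normoxia (adjusted p = 1.32e-05), and HSPB6, a relative studied in muscle, rose 4.71-fold from 0.336 to 1.59 CPM (adjusted p = 0.0198). HSPB11 and HSPB8 were not called in that comparison (adjusted p = 0.454 and 0.523), and HSPB8 was 3.09-fold higher in hypoxia than in freshly laid embryos (adjusted p = 0.0396). The HSPB8 libraries spanned 3.84 to 72.7 CPM in hypoxia (median 13.5 CPM) and 2.24 to 12.6 CPM in freshly laid, so these ranges overlapped. Of 10 heat shock factor partners and ubiquitin genes, 2 were higher in normoxia against freshly laid, 5 higher and 2 lower in hypoxia against freshly laid, and 6 higher and 3 lower in hypoxia against normoxia. SQSTM1, an autophagy receptor for ubiquitin-marked proteins, rose 4.31-fold (adjusted p = 2.05e-06), the ubiquitin gene UBB 2.10-fold (adjusted p = 5.33e-05) and IER2 1.81-fold (adjusted p = 6.42e-05), while IER5, an activator of HSF1 in mammals, fell 3.33-fold (adjusted p = 2.96e-05).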

How the data were processed

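The deposited table holds raw counts per gene and library, counted by featureCounts 1.6.2 over the exons of the rCheMyd1.pri annotation (strand setting 2, minimum mapping quality 10), per the file headers. Duplicates were marked but still counted, per the file headers. STAR and limma are also named, per the submitters' processing notes, without versions. Left aside were 3 columns with no matching sample, and 1 entry without a gene name was left out of totals and tests (0.0553 to 0.335% of the counts). No member's exons share bases with another gene's exons on the same strand.

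Counts were filtered with filterByExpr and scaled by TMM, and all 15 libraries entered a single quasi-likelihood fit with 3 group means (edgeR 4.0.16, R 4.3.3, 12 residual degrees of freedom). P-values were adjusted by Benjamini and Hochberg over all 16639 tested genes. Fold changes come from the model, CPM are TMM-scaled, and levels between genes are per kilobase of annotated exon. The SE of a log2 fold change is its absolute value divided by the square root of the test's F statistic. It therefore restates the test and is not a separate estimate of precision. The depth of 14.5 to 26.8 M counts per library limits low genes such as HSPB1. The script steps were tested on simulated data. No pair of libraries in a group agreed within sampling noise (chi-square per degree of freedom of at least 34.2).

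The members, roles and further lists were chosen with earlier results of these data known. Values in every library are given for members called in at least 1 comparison with a log2 change of at least 1 and no overlap in it. Those of HSPA9, DNAJA4, DNAJB1 and BAG3 were added after their values were seen. Of each further list, up to 4 genes with the smallest adjusted p in hypoxia against normoxia are named. Alternatives were median-ratio size factors, library totals only, no filter, DESeq2 1.42.0, limma-voom 3.58.1, only the groups compared, classes of title numbers as a covariate, neighbouring normoxia libraries summed, each library left out and, added after seeing the data, hypoxia libraries 3 and 4 left out and the column index classes. Sequences of the members were not analysed here.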

Additional observations from a re-analysis of the deposited data

Results flagged for a closer look

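In 10 of 141 sets of 5 libraries (47 members in 3 groups), a library stood further from the rest than Dixon's 95% limit for 5 values, 0.71 of the range. Both the lowest and the highest library were examined, and the chance rate of about 1 in 20 is for both ends together. It was the highest library in all 10 sets, on CPM without a log. Hypoxia 3 was high for HSP90AA1 (175.6 CPM, others 29.6 to 67.8 CPM, gap 0.738 of the range) and for DNAJB1 (57.23 CPM, others 14.7 to 17.3 CPM, gap 0.938). Freshly laid 5 was high for FKBP4 (465.9 CPM, others 341 to 371 CPM, gap 0.765), HSF1 (152.8 CPM, others 86.1 to 105 CPM, gap 0.724) and PFDN5 (124.3 CPM, others 81.2 to 91.2 CPM, gap 0.768). Freshly laid 2 was high for FKBP5 (17.25 CPM, others 8.61 to 10.6 CPM, gap 0.769). Normoxia 1 was high for BAG5 (22.66 CPM, others 11.97 to 13.57 CPM, gap 0.85) and normoxia 4 for CCT7 (505.0 CPM, others 347 to 389 CPM, gap 0.734). Hypoxia 5 was high for CCT2 (425.2 CPM, others 235 to 274 CPM, gap 0.792) and hypoxia 4 for PFDN4 (43.84 CPM, others 21.01 to 27.17 CPM, gap 0.73).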

How the results depend on the processing

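No member changed direction in a called comparison under any of the 25 alternatives. Of the member results under these alternatives, 156 lost a call and 61 gained one, of 3525 examined. With library totals only, 2088 of all tested genes were higher and 5259 lower in hypoxia against freshly laid, and 2674 higher against normoxia. In normoxia against freshly laid, the main fit called 2521 of all genes higher and 2672 lower. The higher members there numbered 13 with title number classes as a covariate, which gave 1990 higher and 2213 lower of all genes. They numbered 10 with neighbouring normoxia libraries summed, which also gave 1422 higher and 1565 lower of all genes and 0 lower members. Lower members numbered 1 with no filter and 0 with column index classes as a covariate, an alternative added after seeing the data. Of all genes, 2564 and 2311 were lower under these settings. Leaving out each library in turn gave 13 to 21 higher and 0 to 3 lower members in that comparison, with 13 without freshly laid 4 or normoxia 5. Calls over all genes moved as well, to between 1952 and 2659 higher and between 2124 and 2784 lower. Without freshly laid 4 and without normoxia 5, 1992 and 1952 of all genes were higher. Lower members numbered 0 without freshly laid 3 and 1 without freshly laid 4 or 5 or normoxia 2, 3 or 5. Where a setting holds fewer libraries, fewer residual degrees of freedom are left, and the cause of the other changes was not tested. Freshly laid and hypoxia libraries of the same replicate number fall in the same title number class. Whether they form pairs is not given in the labels, and the main fit did not pair them. The title number classes hold libraries of every group, or of 2 groups, and were fitted as the covariate above. Every class holds a single freshly laid and a single hypoxia library, and the main p-values do not use the classes. What title and column index numbers stand for is not given in the sources used here. Depth limits HSPB1, which could not be tested in the main fit. It passed the filter in some alternatives and is among the members counted there.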
